A study of Rattus norvegicus with 24 samples.

Results

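Water deprivation for days is a strong stimulus of the supraoptic nucleus, and the arrays described here recorded the transcripts of that nucleus in male rats dehydrated for 3 days. The set was chosen by its labels and comprises 10 of the 24 samples of the series: 5 arrays of dehydrated males and 5 of control males. All rats were Sprague Dawley males of 10 to 12 weeks, and RNA of each array was pooled from the nuclei of 5 rats. The labels give the length of dehydration and not how it was done, and the controls are labelled only as control. Both groups share the same stated storage in RNAlater, homogenisation in QIAzol, clean-up on RNeasy columns and amplification with the MessageAmpII kit, and an input of 500 ng of RNA is stated for 3 of the dehydrated arrays only. A female set of 9 arrays with values (4 controls and 5 labelled as dehydrated for 72 hours), made with other extraction and labelling reagents, served as the comparison at the end.

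The supraoptic nucleus holds the magnocellular neurons, which make vasopressin or oxytocin, pack the peptides into dense core granules and send them down axons to the posterior pituitary for release into the blood. Vasopressin makes the kidney retain water. When body fluids become concentrated these neurons fire more, enlarge, and synthesise peptide at a higher rate. The nucleus lies at the ventral surface of the brain beside the optic chiasm, so that a dissected piece carries a varying amount of the overlying pia and arachnoid.

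The array held 31099 probe sets, each a group of short probes for a transcript, of which 57 were controls. A probe set was tested where its mean level was above the 30th percentile, which left 21729, and these stood for 11533 genes with a single symbol (where a gene had several probe sets, that of the highest mean level stood for it). Levels below are the deposited signals and a fold change is the difference of the group means of log2(signal + 32), taken after each array was scaled to a 2% trimmed mean of 500, with its standard error (SE). "Rose" and "fell" mean a limma adjusted p under 0.05 over all probe sets tested. Because 32 is added, the fold changes of low signals are understated. Signals of different probe sets are not compared. Median signals ran from 36.1 to 38.3 on the dehydrated and from 38.9 to 40.4 on the control arrays. Across probe sets, arrays of the same group correlated at r between 0.964 and 0.982, and arrays of different groups between 0.948 and 0.971, where probe sets are not independent replicates. Xist, an RNA of the inactive X chromosome, gave signals of 0.40 to 8.0 on the 10 arrays and the Y-linked gene Eif2s3y up to 391.3, on all 10 above the 0.10 to 8.94 of the female arrays that fit their label. The probe set of the Y-linked gene Uty read 72.5 to 97.6 on the male and 137 to 191 on 8 of the 9 female arrays, a separation opposite to the one a Y-linked gene would give, and was not used as a check; the array labelled dehydrated female replicate 5 read 80.4, within the male range.

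The defining peptides of the labelled tissue were read on every array, with no other tissue to compare. Avp, the vasopressin gene, read 5590.3, 5616, 4588, 4337 and 4848 on the control arrays and 5928, 4397, 5911, 5279 and 4949 on the dehydrated arrays. Oxt, the oxytocin gene, read 5572, 5112, 3949.6, 4012 and 4293 on the control arrays and 5015, 3872, 5337, 4696 and 4277 on the dehydrated arrays. The ranges of the groups overlapped for both, and neither passed the test, with log2 fold changes of 0.08 ± 0.09 (adjusted p = 0.563) and 0.02 ± 0.10 (adjusted p = 0.915). Whether signals so far above the array medians of 36.1 to 40.4 still follow the amount of RNA was not tested.

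In the dehydrated nucleus 1808 probe sets rose (8.32% of those tested) and 2038 fell (9.38%). At the level of genes 1279 rose (11.1%) and 1153 fell (10.0%), and these shares are the background for every gene list below. Of the probe sets, 68 rose and 102 fell beyond 2-fold. The 5 dehydrated and 5 control signals did not overlap for 2752 probe sets (12.7%). The split depends on how arrays were brought to a common scale: with each array centred on its median, which shifts the median log2 fold change by 0.08, 2710 rose and 1091 fell. Across probe sets the median of the SE was 0.12. Since each array is a pool and nothing in the labels says how the pools of a group were separated, p-values measure the spread between these pools.

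**Figure D1:**
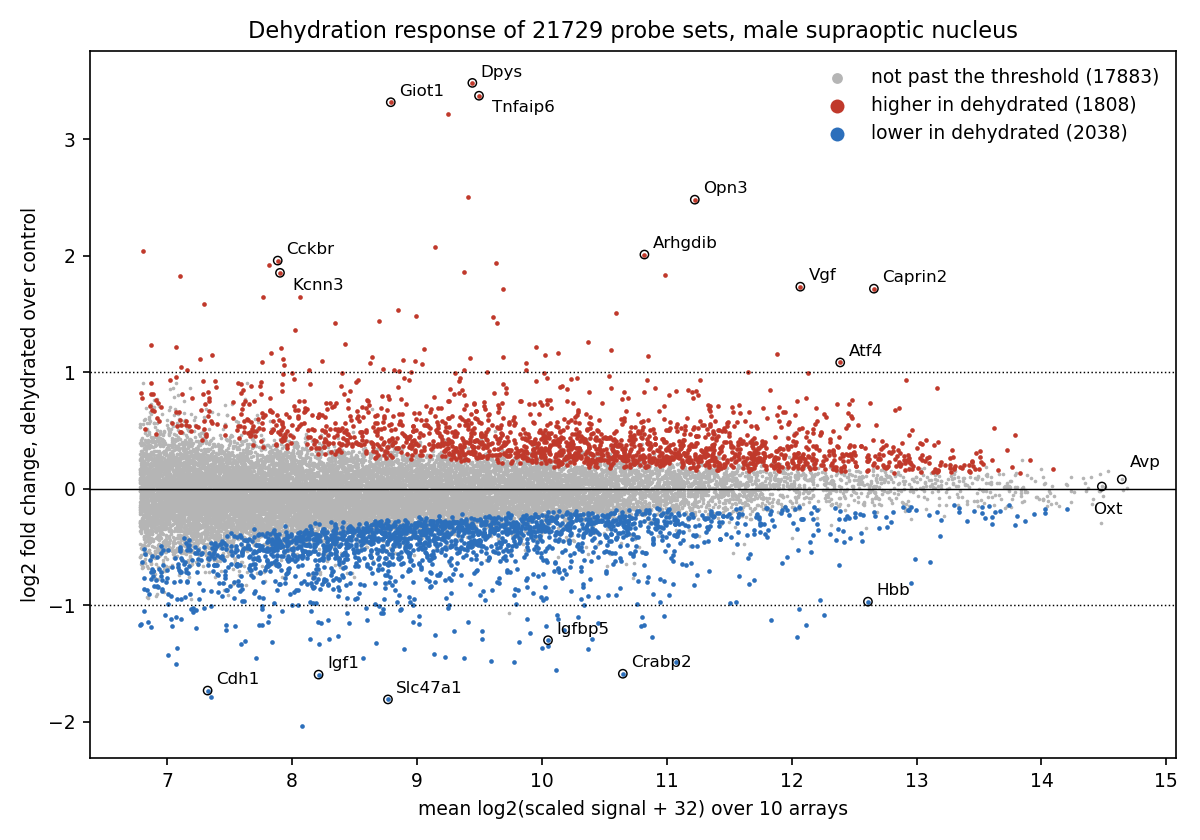
Each point is a probe set, with its mean level over the 10 arrays on the x axis (log2 scale) and its log2 fold change, dehydrated over control, on the y axis; red and blue points passed the test (1808 higher, 2038 lower) and dotted lines mark 2-fold. The largest rises, Dpys, Tnfaip6 and Giot1, lie above 3 on the log2 scale, while the largest fall was -2.03 and the abundant Avp and Oxt lie near 0.

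Markers of the meninges were lower on the dehydrated arrays, and fewer meningeal cells in the dissected piece cannot be told apart from less RNA per cell. The mean log2 value of 13 meningeal matrix markers (collagens, small proteoglycans and the like) lay between 10.3 and 11.3 in controls and between 9.66 and 10.6 after dehydration, a difference of -0.84 (exact 2-sided permutation test, adjusted p = 0.060 over 15 marker lists). That of 15 meningeal barrier and retinoid markers differed by -1.10 (exact permutation, adjusted p = 0.051). Control replicate 5, at 10.3 and 10.4, was the control array with the lowest mean for both lists and the only one inside the dehydrated range. Without it the differences were -1.02 and -1.28. The smallest p that 5 against 5 arrays allow is 0.00794. To show how far each result moves with these markers, fold changes are also given from a fit that holds the mean of the matrix markers as a covariate, called the covariate fit below (a marker was left out of the mean used for its own probe sets). In the covariate fit 585 probe sets were higher (2.69%) and 333 lower (1.53%).

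Rises and falls beyond 2-fold behaved differently in that fit. The 68 rises had a median log2 fold change of 1.22 and of 1.27 with the covariate, although 47 of them became smaller in size. Of the 68, 62 still passed, none was a meningeal marker, and the groups did not overlap for 66. The 102 falls had a median of -1.17 and of -0.39 with the covariate, 17 still passed, and 37 had groups that did not overlap. Of these falls 21 were themselves meningeal markers. Over the 93 falls outside the matrix list the median went from -1.17 to -0.43, and 88 became smaller in size. The median SE of the rises was 0.14 without and 0.19 with the covariate, and that of the falls 0.25 and 0.19. Without control replicate 5 the falls beyond 2-fold numbered 175. With the mean of the barrier markers in its place, an alternative added after the data had been seen, 60 of the rises and 11 of the falls passed.

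The 25 largest rises, among genes above the median level, covered several kinds of protein, and for all 25 the control and dehydrated ranges did not overlap. The signals of Arhgdib were 158, 175, 169.7, 173 and 197 on the control arrays and 758, 706, 683, 704 and 756 on the dehydrated arrays. The 5 dehydrated arrays lay in a narrow band far above the controls, the log2 fold change was 2.01 ± 0.07 (SE, n = 5 each; adjusted p = 1.3e-10), and it was 1.96 in the covariate fit. Rnf138l1, a relative of a ubiquitin ligase gene, read 88.3, 92.5, 81.1, 76.2 and 88.3 on the control arrays and 244, 303, 291, 313 and 324 on the dehydrated arrays. No dehydrated value came near the control values, and the log2 fold change was 1.71 ± 0.09. Caprin2, an RNA-binding protein gene, read 450.3, 675, 752, 749 and 1028 on the control arrays and 2336, 2257, 2366, 2409.8 and 2337 on the dehydrated arrays, so that the controls varied more than the dehydrated arrays; the log2 fold change was 1.72 ± 0.14. Rasd1, a small G protein of the Ras family, had a log2 fold change of 1.84 ± 0.13.

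Other genes among the 25 rises encode enzymes and surface proteins. Tent5a, a member of a family of poly(A) polymerases, rose by 1.14 ± 0.12 on the log2 scale, and Gpd1, the cytosolic glycerol-3-phosphate dehydrogenase, by 1.13 ± 0.17. Crlf2, a cytokine receptor subunit, rose by 1.08 ± 0.10, and Dysf, dysferlin of membrane repair, by 1.08 ± 0.13. Igfbp3, which binds insulin-like growth factors, rose by 1.13 ± 0.17, and Procr, the protein C receptor, by 2.51 ± 0.13. The remaining rises of the 25 were Dpys (3.48 ± 0.31), Tnfaip6 (3.37 ± 0.13), Giot1 (3.32 ± 0.19), Crh (3.22 ± 0.16), Opn3 (2.48 ± 0.14), Oacyl (2.07 ± 0.13), Fos (1.94 ± 0.18), Creb3l1 (1.86 ± 0.10), Vgf (1.74 ± 0.10), Th (1.51 ± 0.12), Chac1 (1.26 ± 0.08), Cebpb (1.20 ± 0.11), Slc7a3 (1.19 ± 0.16), Tubb6 (1.11 ± 0.14) and Atf4 (1.09 ± 0.05). All 25 passed in the covariate fit, where their median log2 fold change went from 1.72 to 1.50.

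Promoters of 19 of these 25 genes were found in the RefSeq table (build GRCr8; 250 bases before to 50 after the start site), and 4 of the 19 (21.1%) held at least 1 of 3 sequences searched on both strands: TGACGTCA, the palindromic cyclic AMP response element, and the 2 related octamers TGACGCAA and TGATGCAA, of which the last is a core of the sites bound by ATF4 with C/EBP proteins. Over all 33469 promoters of the table these were present in 1.83%, 0.496% and 0.795%, and any of them in 3.07%. The 4 stretches are shown because they are the places where the strongest rises and these letters meet; capitals mark the matches, positions count the last base before the start site as -1, and all are written 5′ to 3′ along the strand of the gene.

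Giot1, chr7:10887146-10887215, minus strand: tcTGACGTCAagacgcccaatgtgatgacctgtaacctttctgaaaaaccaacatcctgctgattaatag

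Vgf, chr12:25277043-25277170, minus strand: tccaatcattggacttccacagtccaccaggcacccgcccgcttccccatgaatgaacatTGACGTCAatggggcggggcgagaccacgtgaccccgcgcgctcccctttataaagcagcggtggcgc

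Th, chr1:207508220-207508347, minus strand: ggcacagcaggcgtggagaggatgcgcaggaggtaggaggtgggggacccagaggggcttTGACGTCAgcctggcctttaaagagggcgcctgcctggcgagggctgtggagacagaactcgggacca

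Chac1, chr3:126795881-126796031, plus strand: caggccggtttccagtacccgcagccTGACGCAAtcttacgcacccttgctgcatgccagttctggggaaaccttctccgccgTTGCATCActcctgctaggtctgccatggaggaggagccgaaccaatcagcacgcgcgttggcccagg

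TGACGTCA began at -248 in Giot1, at -90 in Vgf and at -69 in Th. In Chac1, TGACGCAA began at -224 and TGATGCAA, on the opposite strand and so written TTGCATCA here, at -167. Any of the 3 octamers was present in 82 of 1071 promoters of genes that rose (7.66%), in 26 of 945 of genes that fell (2.75%) and in 433 of 9578 of all genes tested (4.52%). Among the 25 largest falls it was present in 3 of 18 (16.7%), so its share among the 25 rises was close to that among the 25 falls. A match describes letters and says nothing of binding.

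For the 4 genes shown, every dehydrated array read above every control array. Th encodes tyrosine hydroxylase, which makes the precursor of catecholamines. Its signals were 179.5, 149, 199.9, 149 and 221 on the control arrays and 425, 441, 623, 580.3 and 540.2 on the dehydrated arrays, a log2 fold change of 1.51 ± 0.12. It was the only 1 of 23 genes of catecholamine and monoamine handling that rose, while Maob, monoamine oxidase B, fell by 0.22 ± 0.07. Chac1, which degrades glutathione, read 143, 156, 171, 168 and 189.7 on the control arrays and 398, 375, 439, 409 and 397 on the dehydrated arrays. The dehydrated values were more than 2 times the control mean on every array, with a log2 fold change of 1.26 ± 0.08.

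Several sharp rises took place at low signal, outside the ranking by level. Cckbr, the cholecystokinin B receptor, read 26.2, 13.6, 18.4, 7.20 and 29.8 on the control arrays and 75.0, 94.4, 96.2, 97.2 and 74.9 on the dehydrated arrays, and its log2 fold change was 1.96 ± 0.22. Kcnn3, a small-conductance calcium-activated potassium channel, read 14.3, 19.3, 15.8, 19.4 and 27.0 on the control arrays and 79.9, 81.3, 93.5, 85.0 and 84.7 on the dehydrated arrays, with a log2 fold change of 1.85 ± 0.13. Slc12a1, the sodium-potassium-chloride cotransporter known from the kidney, read 11.8, 17.9, 16.4, 21.4 and 26.0 on the control arrays and 59.2, 86.1, 75.1, 71.8 and 64.2 on the dehydrated arrays, with a log2 fold change of 1.65 ± 0.16. Each of the 3 was below the median signal of all arrays in every control and above it on every dehydrated array. Pemt, which makes phosphatidylcholine from phosphatidylethanolamine, read 16.3, 29.9, 22.3, 22.9 and 29.9 on the control arrays and 91.0, 90.6, 86.9, 77.7 and 95.0 on the dehydrated arrays, with a log2 fold change of 1.64 ± 0.13. Fosl1, a Fos relative, read 18.4, 14.5, 15.2, 10.5 and 28.9 on the control arrays and 68.5, 92.7, 63.2, 92.3 and 94.8 on the dehydrated arrays, with a log2 fold change of 1.92 ± 0.18. Ucn, the urocortin gene, rose by 0.90 ± 0.12, Mc4r, a melanocortin receptor, by 1.07 ± 0.16, the cation channel Trpv2 by 0.91 ± 0.13 and Lcn2, lipocalin 2, by 1.12 ± 0.13.

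**Figure D2:**
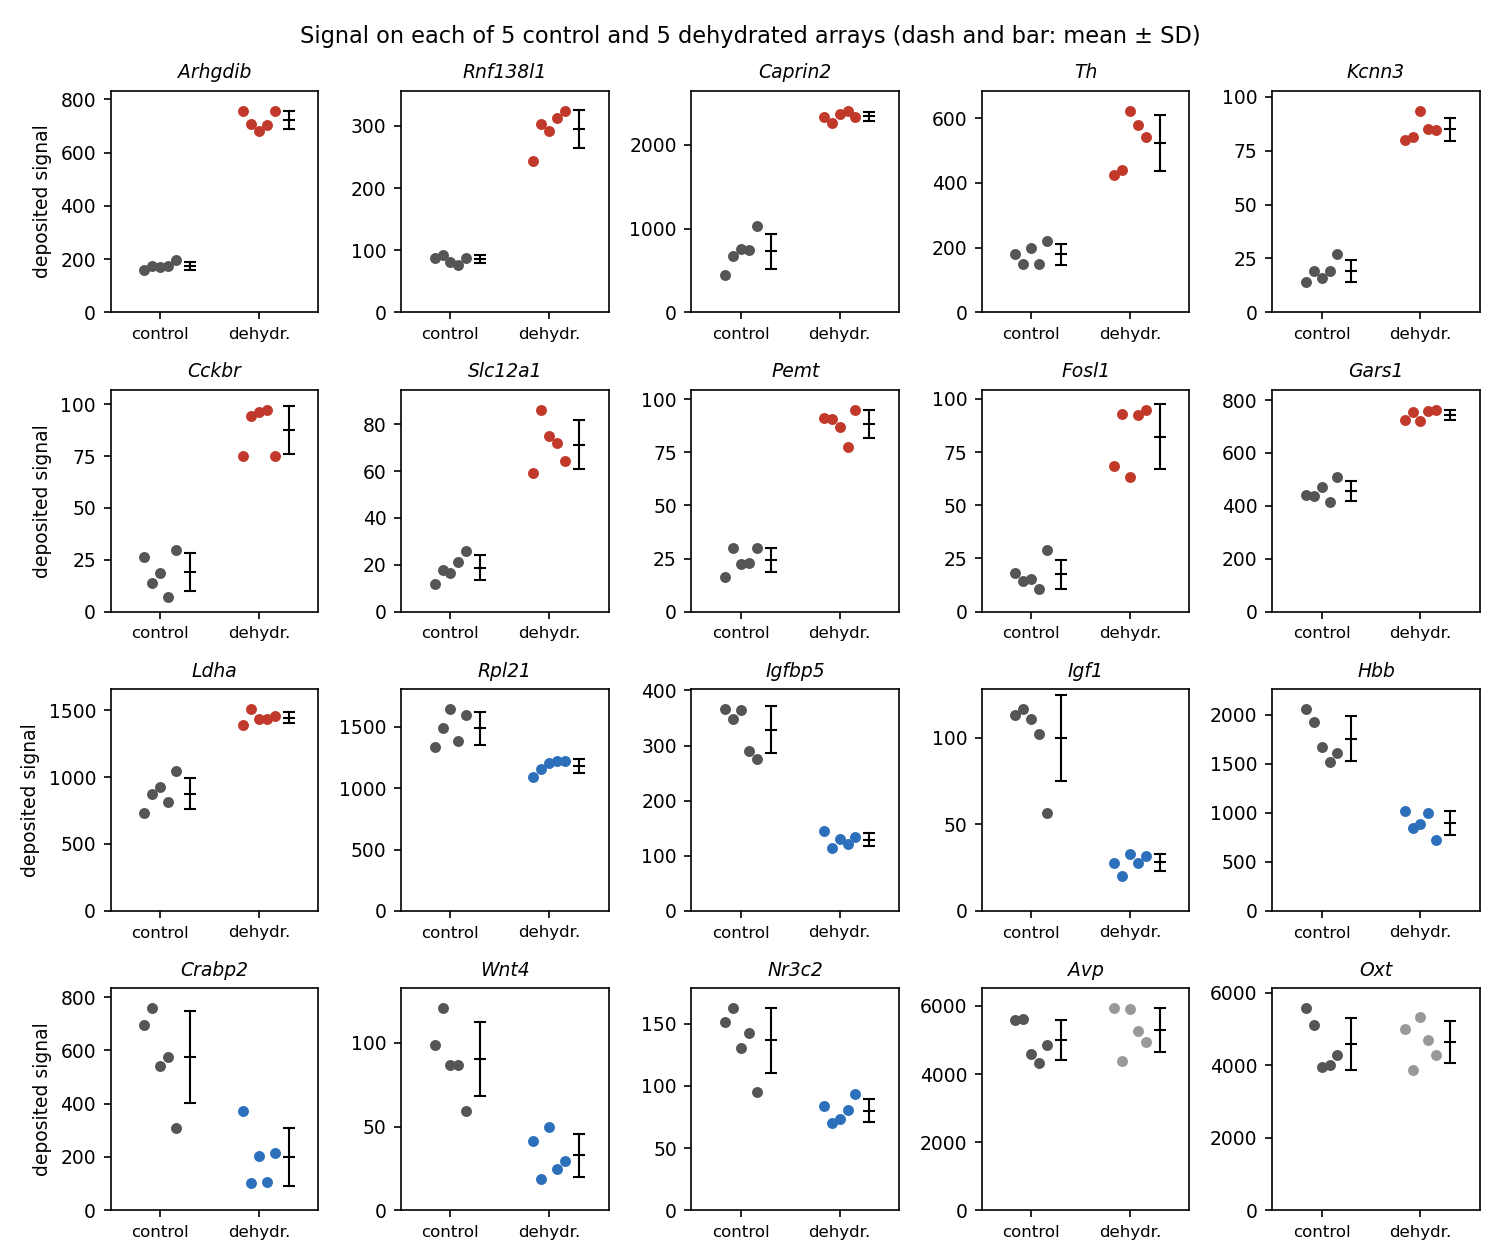
Deposited signal (y axis, linear from 0) of 20 genes on each of the 5 control (dark grey) and 5 dehydrated arrays (red where the gene rose, blue where it fell, light grey where it did not pass the test), with mean ± SD beside the points. In the top rows the groups stand clear of each other, as for Arhgdib with 174 ± 14.3 against 721 ± 33.5, whereas Crabp2 overlaps through control replicate 5, and Avp and Oxt overlap throughout.

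The 55 function lists held 1803 different genes that were tested. In 41 lists the share of members that rose was above the 11.1% of all genes, and in 17 the share that fell was above 10.0%. Some shares of rises were near that of all genes, and those counts are no result about the list. Such were the zinc finger list (13.6%), the calcium list (13.3%) and the metal and heme list (13.8%). Shares of rises were little further above it for the aquaporin (14.3%), glycolysis (14.8%), synaptic adhesion (15.2%) and peptide receptor (15.4%) lists. Both shares of the glutamate receptor, mRNA decay and catecholamine lists lay below those of all genes. In the chromatin list 14.3% fell, against 10.0% of all genes. The counts behind these shares are no result about their lists either. The lists were put together with earlier results of these data known, so these counts describe where the response lay and are not evidence apart from it. Many of the modest changes in them depend on the fit. Of the 301 genes named here 170 no longer passed in the covariate fit, 140 of them changes under 2-fold, and 9 more turned sign there; 105 did not pass with the beta-actin 3' to 5' ratio as a covariate (below).

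**Figure D3:**
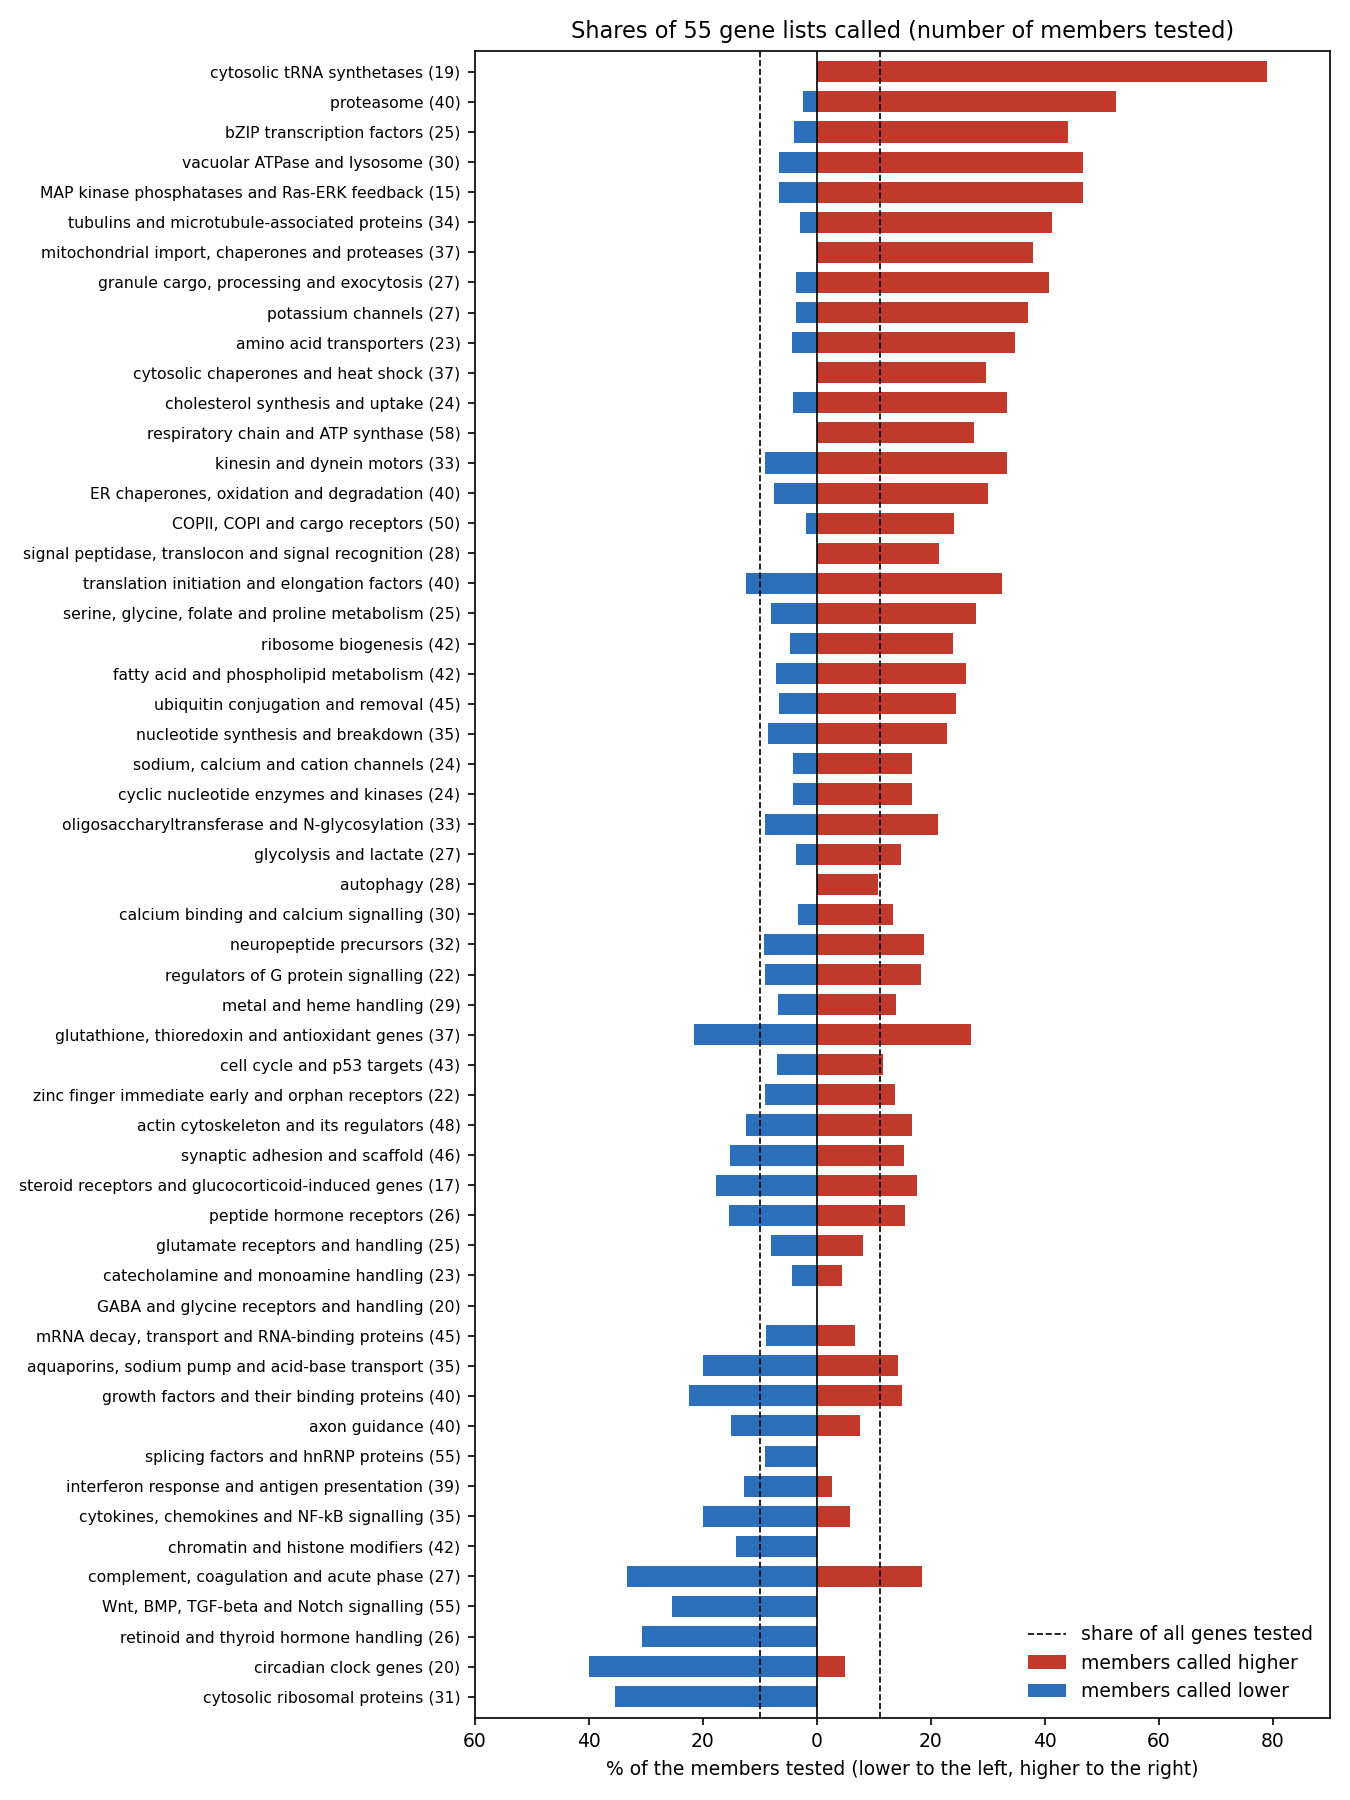
Bars give the percentage of tested members of each of the 55 lists that rose (red, to the right) or fell (blue, to the left), with the number tested in parentheses; dashed lines mark the shares of all genes, 11.1% and 10.0%. Cytosolic tRNA synthetases stand at the top with 78.9% higher, and circadian clock genes and cytosolic ribosomal proteins at the bottom with 40.0% and 35.5% lower.

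Transcription factors of the bZIP class, dimeric proteins that include the Fos, Jun, ATF and CREB3 families, rose in 11 of 25 tested members and fell in 1 (median log2 fold change 0.16). The largest were Fos, Fosl1 and Creb3l1, given above. Nfe2l2, the NRF2 factor of the oxidative stress response, was the member that fell, by 0.40 ± 0.11. Of 22 zinc finger and other immediate early genes and orphan receptors, called the zinc finger list, 3 rose and 2 fell. Nr4a1, an orphan nuclear receptor induced by activity, rose by 1.02 ± 0.14, Csrnp1 by 0.51 ± 0.15 and Ier2 by 0.51 ± 0.15, while Ier3 fell by 0.97 ± 0.24 and Ier5 by 0.47 ± 0.11. Of MAP kinase phosphatases and feedback genes of Ras-ERK signalling, 7 of 15 rose and 1 fell (median 0.42). These included Rasd1, the ERK phosphatase Dusp6 (0.93 ± 0.11) and the inhibitor Spry2 (0.87 ± 0.14), and Rasa1, a Ras GTPase activating protein, fell by 0.35 ± 0.08. Under the meningeal covariate fit, 10 bZIP genes, 2 of the zinc finger list and 5 of the Ras-ERK list were higher. No member of these lists was lower there by limma (0, 1 and 1 at an unadjusted p under 0.05). The falls of Nfe2l2, Ier3, Ier5 and Rasa1 thus no longer passed.

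Genes that charge transfer RNAs formed the list with the greatest share of rises. Of 19 cytosolic tRNA synthetases 15 rose and none fell by limma (0 at an unadjusted p under 0.05) (median log2 fold change 0.44), and 9 passed in the covariate fit. Gars1, the glycine enzyme, read 442, 439, 473, 415 and 511 on the control arrays and 725, 753, 722, 759.8 and 763 on the dehydrated arrays. The groups were far apart relative to their spread, with a log2 fold change of 0.70 ± 0.06. Cars1 rose by 0.67 ± 0.08 and Sars1 by 0.66 ± 0.07. Amino acid transporters rose in 8 of 23 and fell in 1: Slc7a3, Slc7a5 (0.85 ± 0.07) and Slc7a1 (0.78 ± 0.08) carry cationic or large neutral amino acids, and the cystine transporter Slc7a11 fell by 0.66 ± 0.15. In serine, glycine, folate and proline metabolism 7 of 25 rose and 2 fell. Asns, asparagine synthetase, rose by 0.97 ± 0.07, Psph of serine synthesis by 1.00 ± 0.10 and the mitochondrial folate enzyme Mthfd2 by 1.10 ± 0.20. Phgdh, which starts serine synthesis, fell by 0.22 ± 0.07, and Aldh1l1, a folate enzyme of astrocytes, by 0.38 ± 0.11. When the matrix mean was held as a covariate, 6 of the transporters and 5 of the serine and folate list were higher. No member of either list was lower there by limma (1 and 0 at an unadjusted p under 0.05). The falls of Slc7a11, Phgdh and Aldh1l1 thus no longer passed.

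Of 40 initiation and elongation factors 13 rose and 5 fell. Eif4ebp1, an inhibitor of cap-dependent initiation, rose by 0.71 ± 0.09, Eif1a by 0.57 ± 0.11 and Eif5a by 0.54 ± 0.07. Eef2k, the kinase that slows elongation, fell by 0.57 ± 0.12, Eif4b by 0.31 ± 0.06 and Eif4ebp2 by 0.30 ± 0.07. Ribosome biogenesis genes rose in 10 of 42 and fell in 2, with Nop56 (0.55 ± 0.07), Gnl3 (0.52 ± 0.08) and Ddx10 (0.42 ± 0.09) highest, and Dkc1 falling by 0.46 ± 0.13 and Pes1 by 0.37 ± 0.12. Of 31 cytosolic ribosomal proteins 11 fell and none rose by limma (0 at an unadjusted p under 0.05), with a median of -0.12. Rpl21 read 1334, 1489, 1644, 1380.5 and 1593 on the control arrays and 1088, 1158, 1202, 1219.6 and 1225 on the dehydrated arrays, all dehydrated values below all controls, and fell by 0.33 ± 0.06. Rpl24 fell by 0.28 ± 0.05 and Rpl14 by 0.26 ± 0.06. The falls of this list are small, and their number depends on the scaling: 19 fell after quantile normalization and 2 after centring on the median. With the meningeal matrix covariate, 6 initiation and elongation factors were higher and 1 lower, 4 ribosome biogenesis genes higher and 1 lower, and 3 ribosomal proteins lower. Probes of ribosomal protein genes can also pick up their many processed pseudogenes.

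Of 55 splicing factors and hnRNP proteins 5 fell and none rose by limma (2 at an unadjusted p under 0.05). The share that fell, 9.09%, was near the 10.0% of all genes. Among the falls were Hnrnpa1 (-0.29 ± 0.07), Snrnp70 (-0.24 ± 0.06) and Hnrnpm (-0.22 ± 0.06). After median centring 2 rose in place of the falls, so the direction of this list turns with the scaling. Of 42 chromatin and histone modifiers 6 fell and none rose by limma (1 at an unadjusted p under 0.05), such as Tet2 (-0.35 ± 0.07), Dnmt3a (-0.33 ± 0.10) and Kdm5a (-0.33 ± 0.07). Of 45 genes of mRNA decay, transport and RNA binding 3 rose and 4 fell. Besides Caprin2, its relative Caprin1 rose by 0.32 ± 0.08 and Pcbp1 by 0.28 ± 0.05, while Zfp36l1 and Zfp36l2, which promote decay of AU-rich mRNAs, fell by 0.49 ± 0.12 and 0.35 ± 0.07, and Fxr1 by 0.34 ± 0.07. Under the meningeal covariate fit, 1 splicing gene, 1 chromatin gene and 2 genes of mRNA handling were lower and 2 of the last list higher.

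Along the secretory pathway most rises no longer passed in the covariate fit. Of 28 genes of the signal peptidase, translocon and signal recognition particle 6 rose and none fell by limma (0 at an unadjusted p under 0.05), with the translocon-associated subunits Ssr2 (0.33 ± 0.06), Ssr4 (0.33 ± 0.09) and Ssr1 (0.30 ± 0.08) first; after quantile normalization 2 rose and 1 fell. Of 33 genes of oligosaccharyltransferase and N-glycosylation 7 rose and 3 fell. Alg2 rose by 0.37 ± 0.06, Rpn2 by 0.30 ± 0.06 and Ddost by 0.27 ± 0.09, and Man2a1 fell by 0.57 ± 0.14, Magt1 by 0.48 ± 0.09 and Gmppa by 0.27 ± 0.09. Among ER chaperones, oxidation and degradation genes 12 of 40 rose and 3 fell. Manf rose by 0.42 ± 0.09, calreticulin (Calr) by 0.40 ± 0.05 and the chaperone BiP (Hspa5) by 0.38 ± 0.05, against falls of Creld2 (-0.31 ± 0.09), Ero1b (-0.27 ± 0.09) and Txndc5 (-0.25 ± 0.06). Coat proteins of COPI and COPII vesicles and cargo receptors rose in 12 of 50 and fell in 1: Tmed3 rose by 0.54 ± 0.15, Tmed10 by 0.43 ± 0.06 and Cope by 0.43 ± 0.10, and the retrieval receptor Kdelr3 fell by 0.65 ± 0.20. When the matrix mean was held as a covariate, 0 genes of the translocon list were higher by limma (4 at an unadjusted p under 0.05), 2 of the glycosylation list, 3 of the ER chaperone list and 3 of the coat protein list. In the glycosylation list 1 gene was lower there. In the translocon, ER chaperone and coat protein lists none was lower by limma (1, 4 and 4 at an unadjusted p under 0.05). The median log2 fold change went from 0.07 to 0.06 for the translocon list and from 0.10 to 0.06 for the glycosylation list. It went from 0.12 to 0.07 for the ER chaperone list and was 0.06 in both fits for the coat protein list.

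Further along, 11 of 27 genes of granule cargo, processing and exocytosis rose and 1 fell. Ptprn, a granule membrane protein, rose by 0.75 ± 0.08, the calcium sensor Syt5 by 0.74 ± 0.07 and Rab3c by 0.73 ± 0.14, while Rab3b fell by 0.42 ± 0.10. Genes of the proton pump that acidifies granules and lysosomes and of lysosomal proteins rose in 14 of 30 and fell in 2. Scarb2 rose by 0.63 ± 0.09 and the pump subunits Atp6v0a1 and Atp6v1c1 by 0.53 ± 0.09 and 0.48 ± 0.08, while the lysosomal proteins Tpp1 and Psap fell by 0.30 ± 0.08 and 0.23 ± 0.08. With the meningeal matrix covariate, 3 genes of the granule list and 7 of the pump and lysosome list were higher. No member of either list was lower there by limma (1 and 0 at an unadjusted p under 0.05). The list medians went from 0.16 to 0.07 and from 0.16 to 0.15.

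Of 40 proteasome genes 21 rose and 1 fell (median 0.20), with Psmd10 (0.52 ± 0.07), Psmd6 (0.51 ± 0.06) and Psmd3 (0.40 ± 0.10) highest. Psme1, of the interferon-inducible activator, was the member that fell, by 0.25 ± 0.08. The count of rises was 15 after quantile normalization, 29 after median centring and 5 in the covariate fit, where the median was 0.16. Ubiquitin conjugation and removal genes rose in 11 of 45 and fell in 3: Cul3 (0.49 ± 0.05), Ube2c (0.46 ± 0.15) and Uba1 (0.37 ± 0.07) against Usp1 (-0.29 ± 0.09), Trim32 (-0.24 ± 0.07) and Ube2e3 (-0.17 ± 0.05). Of 28 autophagy genes 3 rose and none fell by limma (1 at an unadjusted p under 0.05); the rises were Wipi2 (0.49 ± 0.09), Map1lc3a (0.28 ± 0.05) and Bnip3 (0.21 ± 0.06), a share near the background. In the list of cytosolic chaperones and heat shock genes 11 of 37 rose and none fell by limma (2 at an unadjusted p under 0.05). The rises were led by Hspa9 (0.50 ± 0.08), Hspb8 (0.50 ± 0.10) and Bag1 (0.43 ± 0.08). Hspa9 was placed in this list, although its protein is mitochondrial. Under the meningeal covariate fit, 3 ubiquitin genes, 0 autophagy genes (2 at an unadjusted p under 0.05) and 0 cytosolic chaperones (10) were higher by limma. In the ubiquitin list 1 gene was lower there. In the proteasome, autophagy and cytosolic chaperone lists none was lower by limma (1, 0 and 1 at an unadjusted p under 0.05). The median of the cytosolic chaperones was 0.06 with and without the covariate.

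Of 37 genes of mitochondrial import, chaperones and proteases 14 rose and none fell by limma (0 at an unadjusted p under 0.05), including the protease Clpp (0.43 ± 0.07) and the import factor Timm10 (0.39 ± 0.07). The respiratory chain and ATP synthase list had 16 rises among 58 and none fell by limma (1 at an unadjusted p under 0.05), with Atp5f1d (0.41 ± 0.06), Ndufa5 (0.35 ± 0.08) and Ndufc2 (0.31 ± 0.05) highest, but 7 rises and 3 falls after quantile normalization. Glycolysis and lactate genes rose in 4 of 27 and fell in 1. Ldha, a subunit of lactate dehydrogenase, had the largest rise of that list. It read 732, 874, 924, 812 and 1042 on the control arrays and 1392, 1507, 1431, 1431 and 1458 on the dehydrated arrays, with no overlap and a log2 fold change of 0.72 ± 0.07. Eno1 rose by 0.23 ± 0.06 and Pfkp by 0.19 ± 0.05, and Pygb, the brain glycogen phosphorylase, fell by 0.26 ± 0.05; after quantile normalization 4 of the list rose and 4 fell. When the matrix mean was held as a covariate, 1 gene of the mitochondrial import list, 5 of the respiratory chain list and 1 of the glycolysis list were higher. No gene of these lists was lower there by limma (1, 1 and 2 at an unadjusted p under 0.05). The medians of these lists went from 0.18 to 0.12, from 0.09 to 0.07 and from 0.04 to 0.06.

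Lipid, nucleotide, metal and redox enzymes changed in both directions. In cholesterol synthesis and uptake 8 of 24 rose and 1 fell: Acat2 (0.78 ± 0.09), squalene epoxidase Sqle (0.53 ± 0.06) and Insig1 (0.41 ± 0.08) rose, and the exporter Abca1 fell by 0.35 ± 0.09. In fatty acid and phospholipid metabolism 11 of 42 rose and 3 fell. Next to Pemt, the fatty acid binding proteins Fabp3 and Fabp5 rose by 0.71 ± 0.09 and 0.69 ± 0.07, and Acsl1, Fads1 and Scd2 fell by 0.44 ± 0.08, 0.31 ± 0.05 and 0.25 ± 0.05. In nucleotide synthesis and breakdown 8 of 35 rose and 3 fell. The rises were led by Dpys, Upp1 (0.70 ± 0.12) and Nme1 (0.64 ± 0.08), and Ada, adenosine deaminase, fell by 0.76 ± 0.24, Prps2 by 0.39 ± 0.08 and Ampd3 by 0.25 ± 0.06. In glutathione, thioredoxin and antioxidant genes 10 of 37 rose and 8 fell, so the list divided. Heme oxygenase Hmox1 rose by 0.72 ± 0.10, Srxn1 by 0.55 ± 0.09 and Sod2 by 0.54 ± 0.12; Gstm2 fell by 0.94 ± 0.17, Txnip by 0.74 ± 0.23 and Sod3 by 0.71 ± 0.18, which in the covariate fit were -0.41, 0.12 and -0.15. Of 29 metal and heme genes 4 rose and 2 fell, with the zinc transporters Slc39a6 (0.49 ± 0.08) and Slc30a4 (0.30 ± 0.08) higher and Slc30a10 lower (-0.37 ± 0.10). With the meningeal matrix covariate, 2 cholesterol genes, 7 of fatty acid and phospholipid metabolism, 4 of nucleotide metabolism, 3 antioxidant genes and 2 metal and heme genes were higher, and 1, 1 and 3 of the fatty acid, nucleotide and antioxidant lists lower.

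Of 27 measured potassium channels 10 rose and 1 fell (median 0.25), against 11.1% and 10.0% of all genes, and 2 were higher in the covariate fit. After Kcnn3 came the K2P leak channel Kcnk1 (0.56 ± 0.12) and Kcnh1 (0.43 ± 0.11), and Kcnk2 fell by 0.49 ± 0.13. In the covariate fit no potassium channel was lower by limma (2 at an unadjusted p under 0.05). Of 24 sodium, calcium and cation channels 4 rose and 1 fell: Trpv2, Hcn3 (0.54 ± 0.15) and Cacna2d1 (0.43 ± 0.11) were higher and the sodium channel subunit Scn4b lower (-0.64 ± 0.20). In the covariate fit 2 of them were higher and none lower by limma (1 at an unadjusted p under 0.05). None of 20 genes of GABA and glycine receptors and handling passed the test by limma (1 at an unadjusted p under 0.05). The smallest p among them was that of the glycine receptor subunit Glra1, with a log2 fold change of 0.44 ± 0.20 and adjusted p = 0.137, and after median centring 1 member rose. Of 25 glutamate receptor and handling genes 2 rose, the vesicular transporter Slc17a6 (0.58 ± 0.06) and the NMDA receptor subunit Grin1 (0.39 ± 0.05), and 2 fell, Grm3 (-0.47 ± 0.13) and Gria2 (-0.35 ± 0.09). In the covariate fit 2 of this list were higher and none lower by limma (2 at an unadjusted p under 0.05).

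Regulators of G protein signalling rose in 4 of 22 and fell in 2. The G protein subunit Gng3 rose by 0.70 ± 0.06, Rgs5, also a pericyte marker, by 0.60 ± 0.10 and Rgs7 by 0.40 ± 0.07, while Rgs4 fell by 0.46 ± 0.10 and Rgs2 by 0.41 ± 0.06. Of 24 cyclic nucleotide enzymes and kinases 4 rose and 1 fell. The kinase A subunits Prkar2a and Prkaca rose by 0.44 ± 0.05 and 0.26 ± 0.07 and adenylyl cyclase Adcy3 by 0.41 ± 0.11, and Adcy9 fell by 1.12 ± 0.21 from a low signal (34.9 ± 6.27 to 13.2 ± 6.37). Calcium binding and signalling genes rose in 4 of 30 and fell in 1: calretinin (Calb2) by 0.78 ± 0.07, Camk1 by 0.34 ± 0.09 and Vsnl1 by 0.24 ± 0.06, with the IP3 receptor Itpr1 lower (-0.37 ± 0.12). Under the meningeal covariate fit, each of these 3 lists had 1 member that was higher. The G protein and cyclic nucleotide lists each had 1 member lower there. The calcium list had none lower by limma (1 at an unadjusted p under 0.05).

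Peptides and hormone receptors held some of the strongest single changes. Of 32 neuropeptide precursors 6 rose and 3 fell. Crh, Vgf and Ucn led the rises, and Hcrt, the hypocretin gene of the lateral hypothalamus, fell by 0.87 ± 0.27, Cartpt by 0.34 ± 0.10 and chromogranin B (Chgb) by 0.21 ± 0.07. Hcrt still passed under only 7 of 20 alternatives of the processing, over which its log2 fold change ran from -1.38 to -0.25. Peptide hormone receptors rose in 4 of 26 and fell in 4. After Cckbr and Mc4r, the prolactin receptor Prlr rose by 0.61 ± 0.12. The leptin receptor Lepr fell by 0.86 ± 0.16, the apelin receptor Aplnr by 0.62 ± 0.12 and the natriuretic peptide receptor Npr1 by 0.48 ± 0.11. In the covariate fit Lepr was -0.35 and Aplnr -0.67. Steroid receptors and glucocorticoid-induced genes rose in 3 of 17 and fell in 3. Nr3c2, the mineralocorticoid receptor, read 152, 162, 131, 143 and 95.3 on the control arrays and 83.5, 69.8, 73.6, 80.4 and 93.2 on the dehydrated arrays, with a log2 fold change of -0.71 ± 0.13. All dehydrated values lay below all controls, of which control replicate 5 was the lowest. Nr3c2 no longer passed with the matrix or the barrier mean as a covariate. Over all alternatives of the processing its log2 fold change ran from -0.85 to -0.39. Nr3c1, the glucocorticoid receptor, fell by 0.37 ± 0.07 and Tsc22d3 by 0.26 ± 0.08, while Lcn2, Gpd1 and the metallothionein Mt2A (0.29 ± 0.09) rose. When the matrix mean was held as a covariate, 5 neuropeptide genes, 1 peptide receptor and 4 genes of the steroid list were higher, and 2, 2 and 1 lower.

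Of 20 clock genes measured 8 fell and 1 rose, Nfil3 (0.50 ± 0.13), whose protein represses the targets of Dbp. Dbp read 169, 224, 145, 145 and 141 on the control arrays and 80.7, 81.7, 80.1, 81.5 and 98.9 on the dehydrated arrays, with no overlap and a log2 fold change of -0.90 ± 0.12. Per3 fell by 0.72 ± 0.12 and Hlf by 0.71 ± 0.13. With the meningeal matrix covariate, 2 members were lower and 1 higher. The time of day of dissection is not given for any array.

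Of 34 tubulins and microtubule-associated proteins 14 rose and 1 fell: Tubb6, Dclk1 (0.63 ± 0.08) and Tubb3 (0.58 ± 0.08) were highest, and Dcx fell by 0.31 ± 0.10. The Tubb3 probe set is of a class (_s_at) whose probes match several transcripts of a family. Kinesin and dynein motor genes rose in 11 of 33 and fell in 3. Pafah1b1 (Lis1), which regulates dynein, rose by 0.57 ± 0.08, Ndel1 by 0.34 ± 0.08 and Kif2a by 0.34 ± 0.06, and Nde1, Kif1a and Kif1c fell by 0.46 ± 0.15, 0.44 ± 0.09 and 0.42 ± 0.12. Genes of the actin cytoskeleton and its regulators rose in 8 of 48 and fell in 6. Moesin (Msn) read 259, 321, 265, 253 and 301 on the control arrays and 542, 483, 498, 499.5 and 541 on the dehydrated arrays and rose by 0.86 ± 0.07, profilin Pfn1 by 0.44 ± 0.08 and Arpc3 by 0.36 ± 0.05. The largest falls were of contractile genes of smooth muscle, Tagln (-1.15 ± 0.28), Tpm2 (-1.12 ± 0.26) and Myl9 (-0.77 ± 0.18), which in the covariate fit were -0.22, -0.19 and -0.14. In that fit 8 genes of the tubulin list, 2 motor genes and 6 actin genes were higher. There 1 motor gene was lower, and no gene of the tubulin and actin lists by limma (2 and 2 at an unadjusted p under 0.05).

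Synaptic adhesion and scaffold genes rose in 7 of 46 and fell in 7. Ncam2 rose by 0.56 ± 0.14, Cdh13 by 0.47 ± 0.10 and L1cam by 0.41 ± 0.06. Cdh1, E-cadherin, read 73.4, 78.7, 40.1, 55.0 and 28.8 on the control arrays and 17.1, 1.50, 10.7, 11.6 and 23.2 on the dehydrated arrays, and the log2 fold change was -1.73 ± 0.32. It was -0.87 with an adjusted p of 0.175 in the covariate fit. Cdh11 fell by 0.60 ± 0.12 and Ncam1 by 0.49 ± 0.08. In axon guidance 3 of 40 rose and 6 fell. Sema3e rose by 0.55 ± 0.09, Slit1 by 0.55 ± 0.17 and Unc5c by 0.38 ± 0.08, and Efnb1, Epha3 and Sema5a fell by 0.53 ± 0.16, 0.45 ± 0.14 and 0.42 ± 0.12; after median centring 5 rose and 1 fell, so the balance of that list turns with the scaling. Cell cycle and p53 target genes were near the background, with 5 rises (Cdk1 0.78 ± 0.16, Plk2 0.74 ± 0.07 and Myc 0.56 ± 0.11 highest) and 3 falls among 43, which were Cdkn1c, Ccnd2 (-0.62 ± 0.12) and Ccng2 (-0.32 ± 0.08). Under the meningeal covariate fit, 3 adhesion genes, 1 guidance gene and 2 cell cycle genes were higher. No gene of these lists was lower there by limma (10, 3 and 3 at an unadjusted p under 0.05).

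Of 40 growth factors and their binding proteins 6 rose and 9 fell, 4 were higher and 2 lower in the covariate fit, and 7 rose and 6 fell after median centring. Fgf9 rose by 1.02 ± 0.08 and neuregulin (Nrg1) by 0.77 ± 0.15. Igfbp5, which binds and modulates insulin-like growth factors, read 366, 348, 364, 290.3 and 275 on the control arrays and 145, 114, 130.5, 122 and 135 on the dehydrated arrays. The groups were well apart, the log2 fold change was -1.30 ± 0.09 (adjusted p = 6.5e-07), and in the covariate fit it was -1.05 with an adjusted p of 3.6e-05. Igf1, insulin-like growth factor 1, read 113, 116, 110.5, 102 and 56.5 on the control arrays and 27.8, 20.3, 32.8, 27.6 and 31.9 on the dehydrated arrays. The lowest control value, that of replicate 5, was still above the highest dehydrated value. The log2 fold change was -1.59 ± 0.17, and -1.11 in the covariate fit (adjusted p = 0.00302). Igfbp2, another binding protein and abundant in the meninges, went from -1.16 ± 0.25 to -0.22.

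The 25 largest falls differed from the 25 largest rises in their spread. Their ranges did not overlap for 4 of 25, and 3 of 25 passed in the covariate fit, where their median log2 fold change went from -1.28 to -0.25. The 3 were Igfbp5, Plac8 (-1.45 ± 0.18; -0.97 in the covariate fit) and the matrix protein gene Efemp1 (-1.42 ± 0.19; -0.77). Crabp2, which binds retinoic acid, read 697, 758, 540.3, 574 and 307 on the control arrays and 373, 103, 205, 107 and 214 on the dehydrated arrays. Control replicate 5 lay within the dehydrated range and dehydrated replicates 2 and 4 were the lowest, as they were in both meningeal marker means. Its log2 fold change was -1.59 ± 0.30, and -0.43 in the covariate fit. Solute carriers of the meningeal barrier were frequent among the 25: Slc47a1 (-1.81 ± 0.37), Slc13a3 (-1.55 ± 0.36), Slc13a4 (-1.48 ± 0.33), Slc6a13 (-1.37 ± 0.30) and Slc22a8 (-1.35 ± 0.28). Matrix genes were Col1a2 (-1.27 ± 0.29), Col8a2 (-1.24 ± 0.26), Loxl1 (-1.22 ± 0.25), Sned1 (-1.21 ± 0.26), Fbln1 (-1.18 ± 0.26), Ltbp1 (-1.14 ± 0.19) and Ogn (-1.12 ± 0.24). The others were Tnnt2 (-1.48 ± 0.34), Mpzl2 (-1.32 ± 0.29), Nupr1 (-1.29 ± 0.32), Tspan8 (-1.28 ± 0.28), Cdkn1c (-1.27 ± 0.26), Rhpn1 (-1.26 ± 0.30), Colec12 (-1.18 ± 0.25), Igfbp2 and Tagln. In the covariate fit the 22 that did not pass lay between -0.61 (Slc47a1) and -0.04 (Nupr1).

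**Figure D4:**
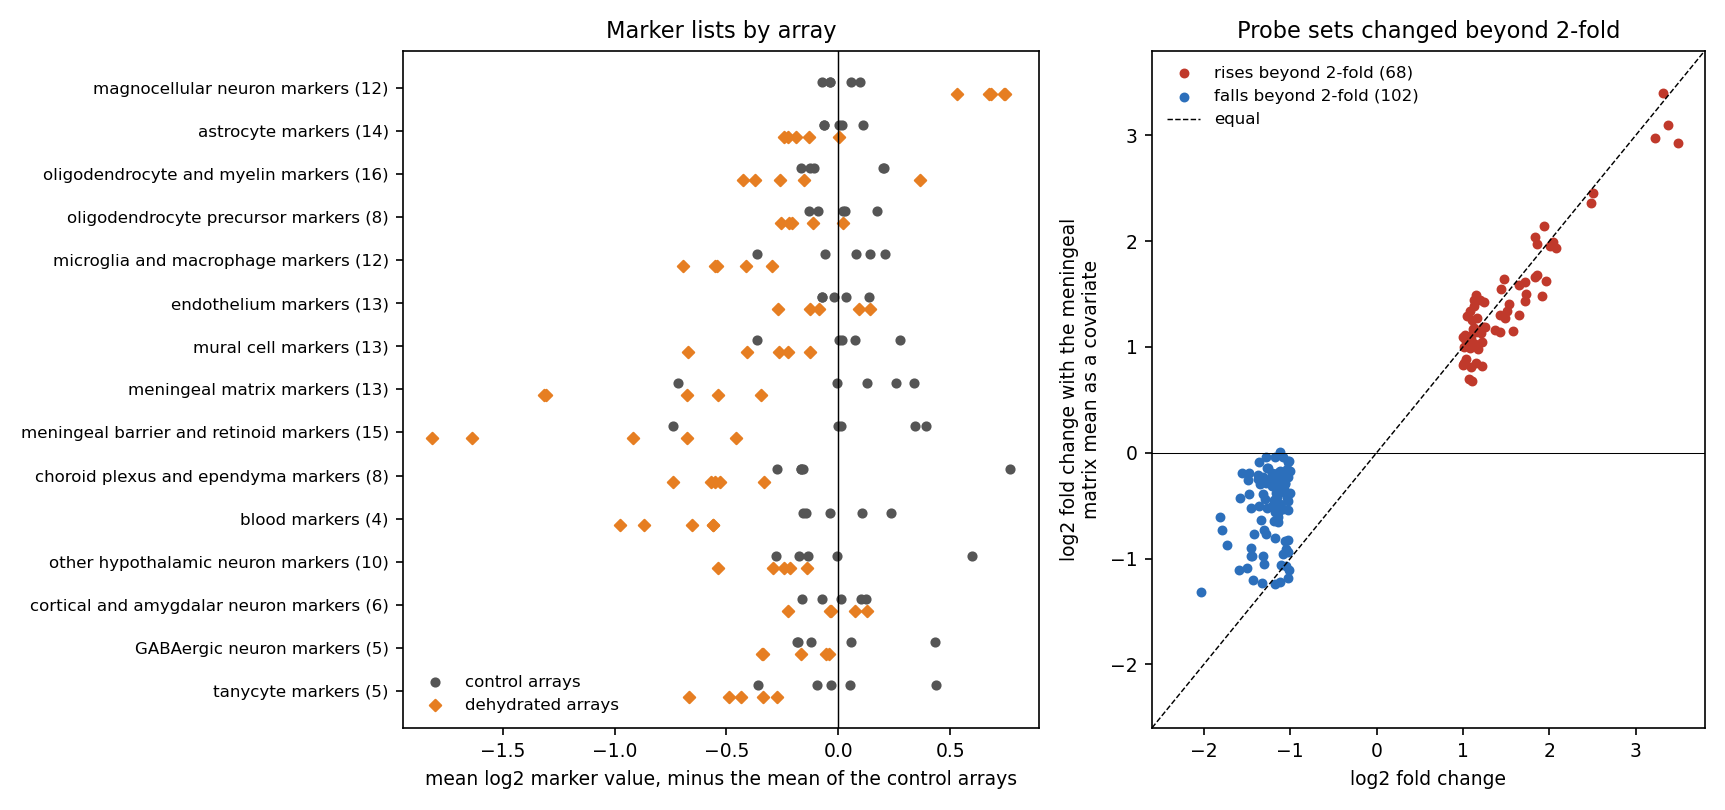
Left, the mean log2 value of each marker list on every array, relative to the mean of the 5 control arrays (number of markers in parentheses; circles control, diamonds dehydrated); right, log2 fold changes of the probe sets changed beyond 2-fold without (x axis) and with (y axis) the meningeal matrix mean as a covariate, with equality dashed. The 68 rises lie around the dashed line, with a median of 1.22 and 1.27 and with 47 of them smaller in size with the covariate. The 102 falls move towards 0, from a median of -1.17 to -0.39.

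Of 26 genes of retinoid and thyroid hormone handling 8 fell and none rose by limma (1 at an unadjusted p under 0.05) (median -0.29, 0.03 in the covariate fit, 1 lower there); besides Crabp2 these were led by the retinoic acid synthesising enzyme Aldh1a2 (-0.98 ± 0.28; 0.13 in the covariate fit) and Rbp4 (-0.98 ± 0.26; 0.02 in the covariate fit). Of 55 genes of Wnt, BMP, TGF-beta and Notch signalling 14 fell and none rose by limma (1 at an unadjusted p under 0.05); the median was -0.19, and -0.07 in the covariate fit. Wnt4 read 98.5, 121, 86.6, 86.7 and 59.4 on the control arrays and 41.2, 18.5, 49.7, 24.7 and 29.6 on the dehydrated arrays and had a log2 fold change of -1.33 ± 0.21 (-0.64 in the covariate fit); Bmp7 fell by 1.15 ± 0.21 and Bmp6 by 0.99 ± 0.20. Complement, coagulation and acute phase genes rose in 5 of 27, including Tnfaip6 and Procr, and fell in 9, including Serpinf1 (-1.03 ± 0.25), Serping1 (-0.95 ± 0.19) and Thbd (-0.94 ± 0.20); the median was -0.19, and 0.08 in the covariate fit. Cytokine, chemokine and NF-kB genes rose in 2 of 35, Tnfrsf12a (1.02 ± 0.13) and Cxcl14 (0.59 ± 0.07), and fell in 7 (2 and 2 after median centring), among them Il18 (-0.65 ± 0.20), Cxcl13 (-0.60 ± 0.18) and Cxcl12 (-0.49 ± 0.16; 0.07 in the covariate fit). Interferon response and antigen presentation genes rose in 1 of 39, Ifit2 (0.48 ± 0.11), and fell in 5 (2 and 2 after median centring), such as RT1-Bb (-0.89 ± 0.27), Ifitm2 (-0.79 ± 0.21; 0.0097 in the covariate fit) and RT1-Da (-0.71 ± 0.22). Aquaporin, sodium pump and acid-base transport genes rose in 5 of 35 and fell in 7, but 8 rose and 1 fell after median centring: next to Slc12a1, Car4 rose by 0.52 ± 0.12 and Slc8a1 by 0.39 ± 0.07, and Slc12a7, Slc8a3 and Ano1 fell by 0.56 ± 0.14, 0.49 ± 0.16 and 0.47 ± 0.15. When the matrix mean was held as a covariate, no member of the Wnt, complement, cytokine, interferon and aquaporin lists was lower by limma (9, 4, 3, 2 and 0 at an unadjusted p under 0.05), and 5, 2, 1 and 4 of the last 4 were higher.

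Markers of other cells in the dissected piece were measured on the same arrays, and in pooled tissue fewer cells of a type cannot be told apart from less RNA per cell. Of 4 blood markers 3 fell, with a list mean lower by 0.72 and no overlap (exact permutation, adjusted p = 0.040). Hbb, beta globin, read 2056, 1930.1, 1672, 1514 and 1608 on the control arrays and 1019, 849.9, 888, 1001 and 719.5 on the dehydrated arrays, a log2 fold change of -0.97 ± 0.10. The value was -0.87 in the covariate fit, so it did not shrink with the meningeal markers as Crabp2 did. Its probe set is of a class (_x_at) that can bind related globins; Hba-a3, an alpha globin, fell by 0.73 ± 0.12 and Alas2, of heme synthesis in red cells, by 0.86 ± 0.17. With 1 array left out at a time this adjusted p, and that of the choroid plexus and magnocellular means below, was 0.0298 without dehydrated replicate 3 or control replicate 5 and up to 0.0794 without another. The groups stay apart whichever array is left out, so the unadjusted p is always the smallest that the arrays allow. The adjusted p then moves only with the p-values of the other lists, and cannot show how these means depend on an array. Of 8 choroid plexus and ependyma markers 3 fell, Ttr (-0.85 ± 0.17), Rarres2 (-0.97 ± 0.25; 0.0085 in the covariate fit) and Foxj1 (-0.63 ± 0.14), with a list mean lower by 0.54 (exact permutation, adjusted p = 0.040). Control replicate 1, at 9.67, stood above the other controls, which ran from 8.62 to 8.74 and still lay above the highest dehydrated value of 8.57. Of 12 microglia and macrophage markers 7 fell, Laptm5 (-0.93 ± 0.16), Aif1 (-0.74 ± 0.12) and Cd68 (-0.68 ± 0.19) most; the list mean was lower by 0.50 (exact permutation, adjusted p = 0.051) and 1 was lower in the covariate fit. Of 13 mural cell markers 6 fell, such as Myh11 (-0.99 ± 0.24) and Vtn (-0.82 ± 0.19), and 1 rose, Rgs5. The mural list mean was lower by 0.34, with overlapping groups (exact permutation, adjusted p = 0.066). The median log2 fold change of the mural markers went from -0.59 to 0.07 in the covariate fit. There none of them was higher or lower by limma (1 and 1 at an unadjusted p under 0.05).

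Of 14 astrocyte markers 5 fell, Gjb6 (-0.82 ± 0.19), Mlc1 (-0.40 ± 0.08) and Aldh1l1 the most, with a list mean lower by 0.16 (exact permutation, adjusted p = 0.051). In the covariate fit none of the astrocyte markers was lower by limma (2 at an unadjusted p under 0.05). Of 5 tanycyte markers 2 fell, Col25a1 (-0.61 ± 0.08; -0.68 in the covariate fit) and Vim (-0.60 ± 0.18; 0.08), with a list mean lower by 0.44 (exact permutation, adjusted p = 0.051). Of 16 oligodendrocyte and myelin markers 1 fell, Aspa (-0.88 ± 0.25; 0.01 in the covariate fit), and of 8 precursor markers none passed limma's threshold (4 at an unadjusted p under 0.05), Pdgfra coming nearest (-0.49 ± 0.16; adjusted p = 0.0501). None of 13 endothelium markers passed by limma, with 2 at an unadjusted p under 0.05 (Tek -0.27 ± 0.10; adjusted p = 0.0636). None of 5 GABAergic neuron markers passed by limma, with 0 at an unadjusted p under 0.05 (Dlx1 -0.31 ± 0.15; adjusted p = 0.168). Of 10 markers of other hypothalamic neurons 2 fell, Hcrt and Cartpt, and of 6 of cortical and amygdalar neurons 1 rose, Fezf2 (0.43 ± 0.14). The mean of the other hypothalamic markers was 9.93 on control replicate 1 and between 9.05 and 9.32 on the other controls. Of 12 magnocellular neuron markers 6 rose and 1 fell, Bmp4 (-0.81 ± 0.25; 0.06 in the covariate fit), with a list mean higher by 0.67 and no overlap (exact permutation, adjusted p = 0.040). The magnocellular list held Creb3l1, Caprin2, Rasd1 and Th, which were put on it with their rise in these data known, so its higher mean is no measure of the share of these neurons. The 10 meningeal matrix markers of 13 and 12 barrier markers of 15 that fell included Fmod (-1.12 ± 0.25), Ogn, Crabp2 and Slc47a1.

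RNA integrity was read from the array's control probe sets, and none of 3 ratios passed the test, which does not show that integrity was alike. The log2 ratio of 3' to 5' signal of beta-actin was 2.65 ± 0.19 on control and 2.97 ± 0.14 on dehydrated arrays (SD, n = 5 each; exact permutation, adjusted p = 0.071 over 3 ratios). For GAPDH it was 1.61 and 1.65 (adjusted p = 0.817), and for hexokinase 1.98 and 1.21 (adjusted p = 0.143), so the direction was not shared. With the beta-actin ratio as a covariate 867 probe sets were higher and 666 lower.

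Genes with several probe sets allowed a check within the array. Of 2969 such genes 949 had at least 1 probe set that passed, and 228 had 2 or more, all in the same direction. In 14 genes probe sets passed in opposite directions. Atat1, which acetylates alpha-tubulin, was higher by 0.53 ± 0.09 on the log2 scale on a probe set and gave -0.46 ± 0.09 on another. Slc1a3, the glutamate transporter of astrocytes, gave 0.75 ± 0.15 and -0.47 ± 0.15, and the class II gene RT1-Ba 0.54 ± 0.18 and -0.62 ± 0.17. Spats2l gave 0.44 and -0.47, Odf2 0.40 and -0.35, and Clpb 0.41 and -0.33. For these genes the arrays give no single direction, and probe sets can report different transcript ends.

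The female arrays asked whether the same probe sets moved in the other set of the series. The array labelled dehydrated female replicate 5 went against its label in Xist (2.59 against 462 to 694 on the other 8) and Eif2s3y (242 against 0.10 to 8.94) and was left out, with the values that include it given beside. In the 4 against 4 female arrays 384 probe sets rose (1.77%) and 259 fell (1.19%). Of the 68 male rises 66 were tested in females, 65 had the same sign, 55 rose there, and their median log2 fold change was 1.23. Of the 102 male falls 82 were tested, 81 had the same sign, 24 fell, and the median was -0.65. With all 9 female arrays 1 probe set passed by limma in that set (1785 at an unadjusted p under 0.05), it was among the rises, and 62 of 66 rises and 70 of 84 falls had the same sign.

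**Figure D5:**
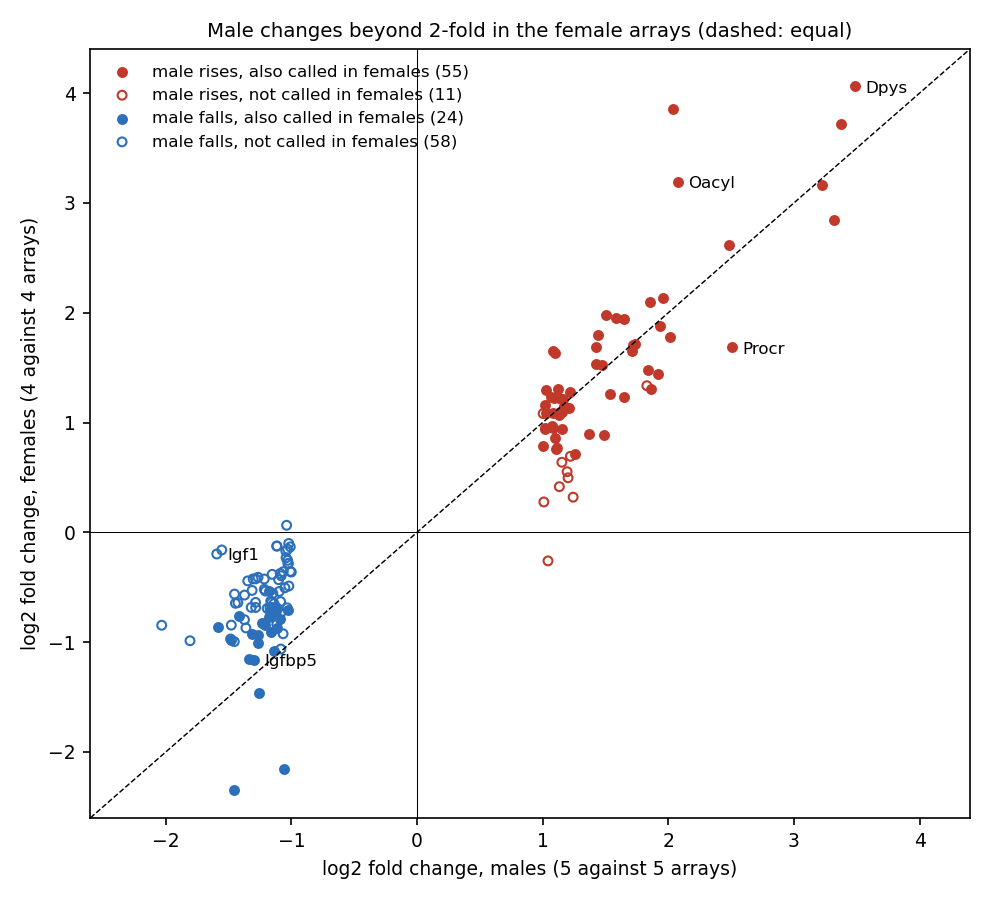
Log2 fold changes of the probe sets that changed beyond 2-fold in males (x axis; 5 against 5 arrays) against those in females (y axis; 4 against 4 arrays), filled where the change passed in females in the same direction and open where it did not. Of the rises 55 of 66 are filled and lie around the dashed line of equality, whereas the falls lie nearer to 0 in females, with 24 of 82 filled.

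The difference between the male and female responses was tested in a fit of both sets, in which sex, reagents and software changed together. It passed for 7 of 21729 probe sets (0.0322%), 3 higher and 4 lower in males, with 2177 at an unadjusted p under 0.05. The count ran between 1 and 55 as single arrays were left out. None of the 68 rises and 1 of the 102 falls was among them. That fall was Igf1, -1.59 ± 0.17 in males and -0.20 ± 0.15 in females, a difference of -1.40 ± 0.24 with an adjusted p of 0.0435. Kif5c, a kinesin heavy chain that carries cargo along axons, read 381, 370.0, 423, 399.8 and 429 on the control arrays and 414, 425, 290.4, 382 and 358 on the dehydrated arrays in males, with overlapping ranges and a log2 fold change of -0.11 ± 0.09. In females the mean signals were 209 ± 23.4 to 435 ± 42.7 (SD, n = 4 each), the log2 fold change was 1.04 ± 0.12, and the difference was -1.14 ± 0.15 (adjusted p = 0.00299). With dehydrated female replicate 5 included, no probe set passed by limma (1707 at an unadjusted p under 0.05), and the adjusted p was 0.157 for Igf1 and 0.0933 for Kif5c.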

How the data were processed

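RNA of 10 samples, each from 5 male rats per the labels, was hybridised to Affymetrix arrays. The values deposited by the authors are signal intensities on a linear scale, made with GCOS 1.2 per the submitters' processing notes; the female arrays were made with MAS5. Probe-level files were not used here.

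Each array was scaled to a 2% trimmed mean of 500, 32 was added and log2 taken. Probe sets with a mean above the 30th percentile were tested with limma 3.58.1 (R 4.3.3; lmFit, eBayes with trend), with Benjamini-Hochberg adjustment and a threshold of 0.05. The script was checked on simulated data. Marker means and 3' to 5' ratios were compared by 2-sided exact permutation tests (scipy 1.17.1).

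Symbols came from the platform annotation, updated by Entrez ID to RefSeq: 20832 probe sets had 1 symbol, 436 several and 9831 none. A gene was its probe set with the highest mean. Genes were named by rule: the 25 largest rises and falls above the median level, up to 3 rises and 3 falls called per list (or the smallest p), up to 6 with opposite probe sets, up to 6 per direction that differed between sets, Avp, Oxt and sex-linked genes. The 55 function lists and 15 marker lists, and the set of arrays itself, were chosen with earlier results of these data known.

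Alternatives were normalization (quantile, median centring), the value added (1, 100), the filter (none, 50th percentile), array weights, no trend, the covariates, each gene's probe set of smallest p, and leaving out each array. The 5 lactating arrays were not analysed here.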

Additional observations from a re-analysis of the deposited data

Results flagged for a closer look

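In 39 of 638 groups of 5 values examined (a gene, marker mean or control ratio on the 5 arrays of a group), the highest or lowest value stood apart from the other 4 by a gap beyond Dixon's 95% limit. Chance flags about 1 in 20 groups. Control replicate 1 gave the lowest signal of its group for Dpys at 7.60 (others 36.2 to 54.0), Grm3 at 113 (others 160.5 to 180.0), Sod2 at 259 (others 362 to 398) and Upp1 at 37.6 (others 54.5 to 61.5), and the highest for Fos at 144 (others 53.8 to 69.6) and Gria2 at 997 (others 745 to 773). Control replicate 2 gave the highest signal of its group for Mt2A at 390.0 (others 302 to 325). Control replicate 3 gave the lowest signal of its group for Tet2 at 122 (others 127 to 128), and the highest for Crlf2 at 168 (others 108 to 121). Control replicate 4 gave the lowest signal of its group for Eno1 at 1516 (others 1739 to 1830.2). Control replicate 5 gave the lowest signal of its group for Ada at 33.4 (others 72.7 to 92.1), Col1a2 at 716 (others 1326 to 1696), Colec12 at 295 (others 562 to 684), Cxcl12 at 304 (others 409 to 451), Dnmt3a at 105 (others 129 to 138), Efemp1 at 97.3 (others 184 to 220.5), Fbln1 at 186 (others 331 to 364), Igf1 at 56.5 (others 102 to 116), Man2a1 at 86.2 (others 134 to 149.5), Ogn at 646 (others 1092 to 1346) and Txnip at 441 (others 634 to 724), and the highest for Oacyl at 70.6 (others 41.0 to 47.5). Dehydrated replicate 1 gave the lowest signal of its group for Arpc3 at 1201 (others 1284 to 1313), Bag1 at 278 (others 298 to 304) and Slc30a4 at 148 (others 181 to 192), and the highest for Pafah1b1 at 305 (others 239 to 247) and Tubb3 at 1207 (others 1120.0 to 1138). Dehydrated replicate 2 gave the lowest signal of its group for Laptm5 at 40.8 (others 67.3 to 79.1), and the highest for Manf at 624 (others 479 to 511). Dehydrated replicate 3 gave the lowest signal of its group for Dcx at 58.1 (others 72.6 to 74.2) and Gng3 at 794 (others 900.5 to 909), and the highest for Hcn3 at 81.9 (others 46.3 to 54.6), Ier5 at 148 (others 96.1 to 107), Mlc1 at 663 (others 514 to 542) and Phgdh at 555 (others 447 to 475). Dehydrated replicate 5 gave the lowest signal of its group for Scarb2 at 91.0 (others 94.7 to 96.1), and the highest for Dbp at 98.9 (others 80.1 to 81.7) and Rgs4 at 547 (others 374 to 417). The mean of the choroid plexus and ependyma markers was 9.67 on control replicate 1 (others 8.62 to 8.74).

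Of 300 genes examined, the male and female responses differed in 2 by limma's test of the difference. For Igf1 the log2 fold change was -1.59 in males and -0.20 in females, a difference of -1.40 (adjusted p = 0.0435). For Kif5c it was -0.11 and 1.04, a difference of -1.14 (adjusted p = 0.00299). With dehydrated female replicate 5 included, neither passed. Sex, extraction, labelling and software change together between the sets and cannot be told apart.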

How the results depend on the processing

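Of 301 genes named, 93 kept their direction and their side of the threshold under all alternatives; Avp and Oxt passed under none of them but changed sign between them. The meningeal and 3' to 5' covariates changed the most calls of named genes, and 170, 176 and 105 no longer passed with the matrix, barrier and beta-actin covariate; the cause was not tested. Both marker means were themselves lower on the dehydrated arrays, so covariate and group overlap. Signal near the background of the array limits the fold changes of low probe sets.

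With the matrix covariate 585 probe sets were higher and 333 lower, 21 of these lower beyond 2-fold; with the barrier covariate, chosen after seeing the data, 497, 263 and 23. With the beta-actin 3' to 5' covariate 867 were higher and 666 lower, and 105 and 173 beyond 2-fold. Median centring gave 1091 lower. Adding 1 in place of 32 gave 157 falls beyond 2-fold, and adding 100 gave 44 rises and 53 falls. Leaving out 1 array at a time gave 1419 to 1926 rises, 1420 to 2223 falls, 66 to 84 rises beyond 2-fold and 72 to 175 falls beyond 2-fold, the last without control replicate 5. Falls of named genes turned to positive log2 fold changes with the matrix covariate for Aldh1a2 0.13, Aspa 0.011, Bmp4 0.056, Cxcl12 0.065, Ifitm2 0.0097, Rarres2 0.0085, Rbp4 0.022, Txnip 0.12 and Vim 0.077, and with the barrier covariate for Ada 0.083, Aldh1a2 0.26, Aspa 0.14, Bmp4 0.16, Cxcl12 0.14, Ifitm2 0.072, Kdelr3 0.048, Nupr1 0.11, RT1-Da 0.031, Rarres2 0.12, Rbp4 0.15, Txnip 0.23 and Vim 0.14.

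The count of probe sets that differed between males and females was 114 with array weights, 12 after median centring, 2 with no filter, 11 adding 100, 20 after quantile normalization, 0 with dehydrated female replicate 5 (limma; 1707 at an unadjusted p under 0.05), and 1 to 55 leaving out 1 array at a time. The difference of the matrix marker mean ran from -1.02 to -0.72 and that of the barrier marker mean from -1.28 to -0.92 leaving out 1 array at a time; both passed (exact permutation, adjusted p = 0.0298) without control replicate 5 and in no other of these. The adjusted p of the magnocellular, blood and choroid plexus means ran from 0.0298 to 0.0794 over the same alternatives and was under 0.05 without dehydrated replicate 3 or control replicate 5. Their unadjusted p was the smallest allowed each time, so this range comes from the other lists in the adjustment.

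No paired analysis was possible because the male arrays carry codes and not replicate numbers shared between the groups.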
